A study of Homo sapiens and Mus musculus with 7 samples.

Results

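Cholesterol synthesis and sterol handling were followed through 32 genes on 7 expression arrays, in cells and livers with lowered or deleted Fas (CD95), a death receptor of the cell membrane that Fas ligand activates. A probe set counted when the array annotation gave it 1 gene symbol and that symbol was a member, with mouse symbols read without regard to case and mouse Cyp51 taken for CYP51A1. The 32 genes are part of 24332 gene symbols found in either table. On the human arrays 29 of them had such a probe set (66 probe sets), on the mouse arrays 30 (66 probe sets), and 28 genes were measured in both species. FDFT1, NR1H2 and CYP51A1 were not measured in human cells, and Acat2 and Nr1h2 were not measured in mouse liver.

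The arrays came from 3 systems, with 1 array for each of 7 groups. HeyA8, a human ovarian cancer cell line, carried a stable FAS knockdown by the hairpin shRNA4, a stable FAS knockdown by the hairpin shRNA6, or the PLKO control (pLKO, a lentiviral vector for hairpins). The human liver cancer line HepG2 carried a stable FAS knockdown by shRNA6 or the PLKO control. Liver tissue came from a male Fas knock-out mouse and a male wild-type mouse, both C57/BL6 and 2 months old. The labels call the human lines knock-down in one field and knock-out in another. The sources do not say whether a stable line is a pool or a clone, whether livers were pooled or which allele the mouse carries. Both HeyA8 comparisons share 1 control array, and any deviation of that array enters each of them.

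Cells make cholesterol from acetyl-CoA through the mevalonate arm, which ends in isoprenoid diphosphates, and then through squalene and a series of sterols. When sterol in the endoplasmic reticulum is low, SCAP escorts SREBP2 (SREBF2) to the Golgi for cleavage, and the released factor acts with NF-Y and Sp1 at the promoters of the enzymes. INSIG1 and INSIG2 hold SCAP back when sterol is high. Oxysterols act in the other direction through the LXR receptors (NR1H2, NR1H3), which raise efflux through ABCA1 and ABCG1 and, through MYLIP, the degradation of lipoprotein receptors. The liver is a main site of both routes.

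Promoter stretches are shown for some members whose values recur below. Binding of SREBP2, NF-Y or LXR to them was not measured here. They come from RefSeq on GRCh38.p14, run 5′ to 3′ on the strand of the gene, and have motif matches in capitals. The searched letters, on both strands, were TCACNCCAC for the SREBP element, CCAAT for the NF-Y box and for the LXR element GGTNA, any 5 bases and GGTNA again, where N is any base.
SREBF2, chr22:41832942-41833010, + strand, an SREBP element and an NF-Y box: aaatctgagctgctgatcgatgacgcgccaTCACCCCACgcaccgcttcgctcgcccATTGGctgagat
INSIG1, chr7:155297678-155297742, + strand, an NF-Y box: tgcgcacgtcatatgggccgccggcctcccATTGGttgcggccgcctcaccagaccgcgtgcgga
INSIG2, chr2:118088351-118088470, + strand, no match: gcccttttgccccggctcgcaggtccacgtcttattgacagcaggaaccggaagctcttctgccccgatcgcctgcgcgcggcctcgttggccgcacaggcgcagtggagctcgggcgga
HMGCS1, chr5:43313478-43313597, - strand, a pair of NF-Y boxes: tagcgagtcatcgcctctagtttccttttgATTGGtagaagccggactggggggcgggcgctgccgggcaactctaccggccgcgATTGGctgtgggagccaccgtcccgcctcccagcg
MSMO1, chr4:165327454-165327668, + strand, NF-Y boxes: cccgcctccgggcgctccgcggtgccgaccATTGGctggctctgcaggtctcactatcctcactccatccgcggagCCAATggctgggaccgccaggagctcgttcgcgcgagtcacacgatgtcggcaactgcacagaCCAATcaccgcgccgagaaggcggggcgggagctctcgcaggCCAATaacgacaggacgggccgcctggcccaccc
STARD4, chr5:111512631-111512726, - strand, a pair of NF-Y boxes: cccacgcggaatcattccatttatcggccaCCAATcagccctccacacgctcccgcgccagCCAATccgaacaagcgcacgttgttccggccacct
TM7SF2, chr11:65111768-65111832, + strand, an NF-Y box: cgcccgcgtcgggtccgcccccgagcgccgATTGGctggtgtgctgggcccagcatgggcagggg
ABCA1, chr9:104928180-104928254, - strand, an LXR element read on the opposite strand: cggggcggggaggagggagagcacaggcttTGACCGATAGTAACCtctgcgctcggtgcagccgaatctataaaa

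Of the 32 members 28 had a promoter in the table, counted from 250 bases before to 50 bases after each start site. Among the 22 genes of the synthesis side, 17 (77.3%) held an NF-Y box, against 39.7% of all 27305 genes in the table. The SREBP element in these exact letters was found in 1 of the 22, SREBF2 itself, against 1.39% of all genes. The LXR element was found at ABCA1 and at a second start of HMGCS1, against 0.780% of all genes. Matches are letters only, and other forms of each element were not searched.

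**Figure D1:**
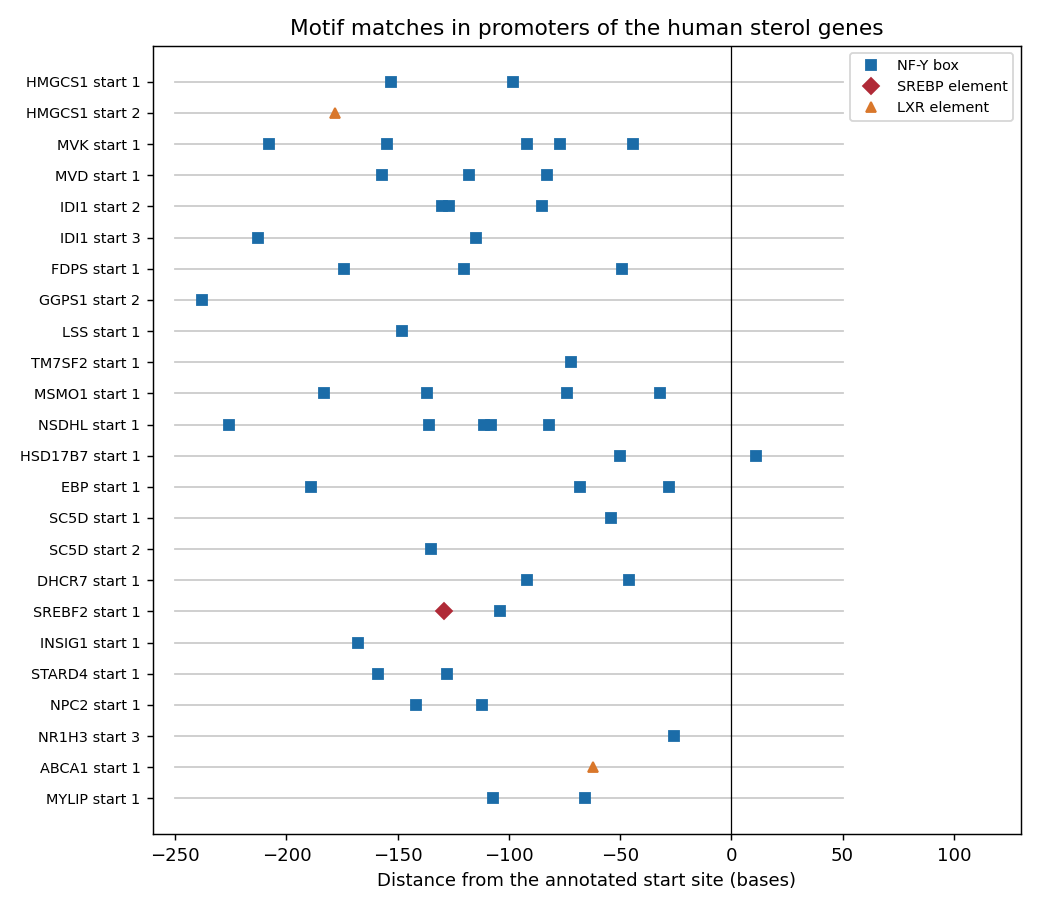
Motif matches in the human member promoters that held one, by distance in bases from the annotated start site (0, vertical line). Squares are NF-Y boxes, diamonds SREBP elements and triangles LXR elements. NF-Y boxes stand in 17 of 22 synthesis genes, and the single SREBP element is at SREBF2.

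The deposited values are array signals on a linear scale, and differences are log2 ratios of signal plus a pseudocount of 12.6 (human) or 20.5 (mouse), which understates the differences of dim genes. A member entered a comparison when 1 of the compared arrays was above its own median signal. FAS itself, by its most intense probe set, gave 1184 with shRNA4 and 856 with shRNA6 in HeyA8, against 2104 with the vector. In HepG2 it gave 631 with shRNA6, against 1087 with the vector, and mouse Fas gave 169 in the knockout and 560 in wild type. The position of the mouse probe set relative to the deletion is unknown here, so it does not check the genotype. Of 5 measured hepatocyte markers, 5 were above the array median on both HepG2 arrays, and AFP alone was so on the 3 HeyA8 arrays. Of the 5 ovarian or epithelial markers, PAX8, WT1 and KRT7 were more intense in HeyA8, and EPCAM was more intense in HepG2, at 11281 and 10621, against 281, 619 and 405 in HeyA8. MUC16 stayed below 7 on every human array, and the list summed to 12109 and 11502 in HepG2, against 9449, 8474 and 9784 in HeyA8. In mouse liver 6 of 6 hepatocyte markers were above the median in both livers.

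In HeyA8 cells with either FAS hairpin, more members of the synthesis side lay below the vector control than above it, and INSIG1, which restrains SREBP cleavage, was at 61.4% of the control signal with shRNA4 and 63.2% with shRNA6. With shRNA4, 16 of 22 synthesis genes were below control (46.6% of all 12175 genes were), with a median log2 ratio of -0.23 beside 0.03 for all genes. With shRNA6, 15 of 23 were below control (48.8% of all 12152 genes), with a median of -0.06 beside 0.01 for all genes. With arrays scaled to equal medians 11 of 23 were below control with shRNA6, beside 36.6% of all genes. The differences are small, and with 1 array a group they have no replicate check. At 1.5-fold, 5 of 28 members were lower with shRNA4 (6.73% of all genes) and 1 was higher (6.21%). With shRNA6, 1 of 29 was lower (6.23%) and 1 was higher (4.67%).

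**Figure D2:**
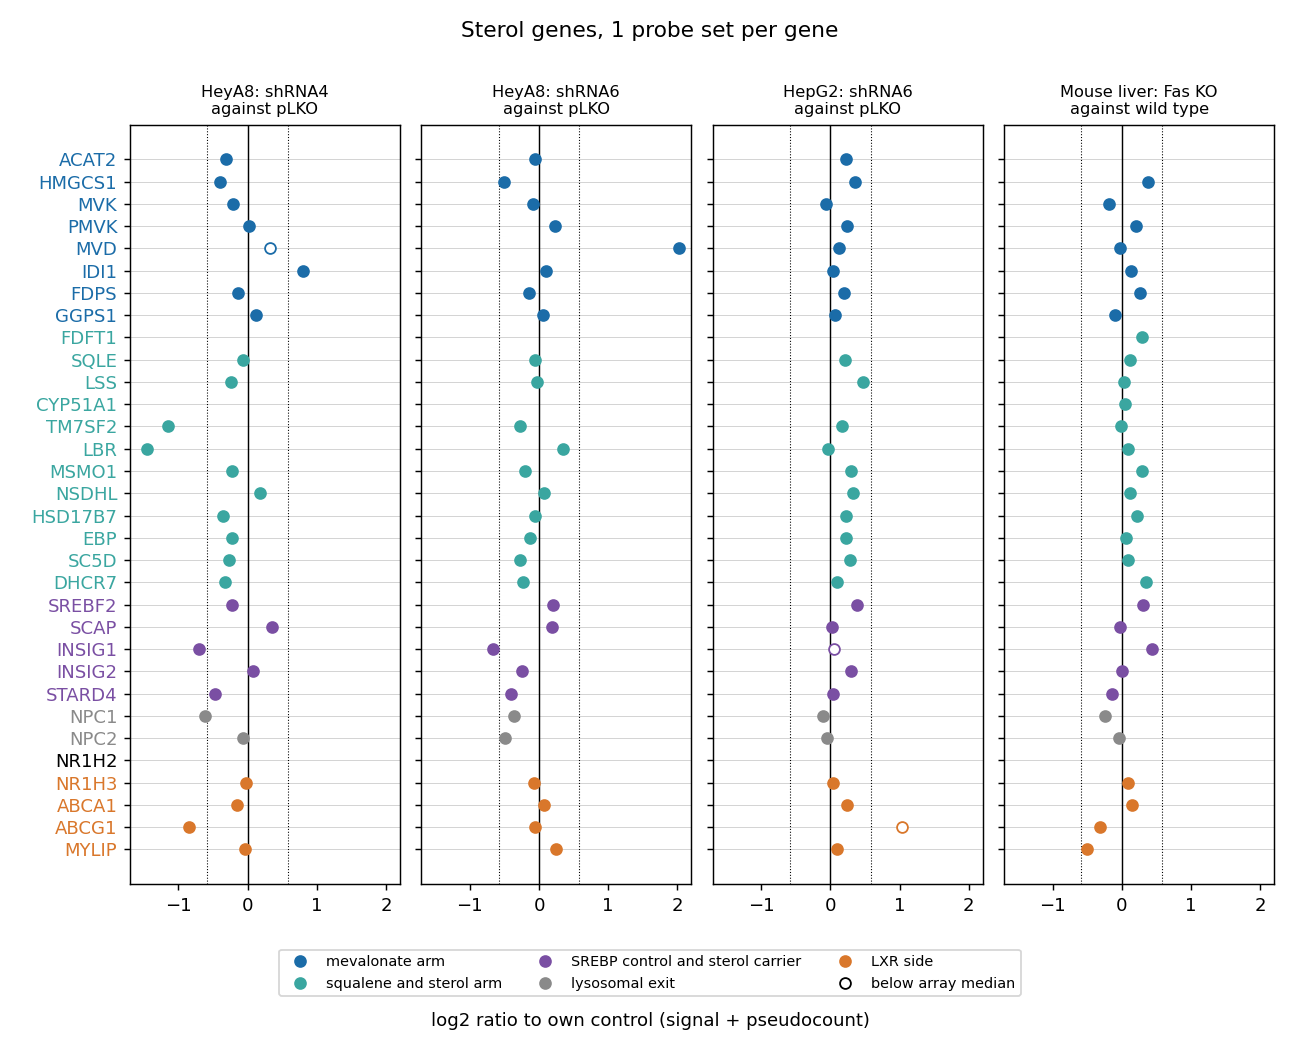
Log2 ratio to the own control for each member (rows, by role) in the 4 comparisons, knockdown or knockout over control. Each point is 1 pair of arrays, open points lie below the array median on both arrays, dotted lines mark 1.5-fold, and a member without a point was not measured. Synthesis genes lie mostly left of 0 in the HeyA8 panels and mostly right of 0 in the HepG2 and mouse panels.

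In the mevalonate arm, HMGCS1, which condenses acetyl-CoA with acetoacetyl-CoA, gave 1720 with shRNA4 and 1597 with shRNA6, against 2261 with the vector. These are 76.1% and 70.6% of the control signal. ACAT2, the thiolase before it, gave 2942 with shRNA4 and 3530 with shRNA6, against 3667 with the vector, or 80.2% and 96.3% of the control signal. FDPS, which makes farnesyl diphosphate, gave 9267 and 9250 with shRNA4 and shRNA6, against 10197 with the vector. Mevalonate kinase (MVK) gave 451 and 491 with shRNA4 and shRNA6, against 522 with the vector, while another probe set lay above control with shRNA4, at 194 against 182. PMVK, the next kinase, lay above control, at 782 and 905 with shRNA4 and shRNA6, against 773 with the vector. GGPS1, which makes geranylgeranyl diphosphate, gave 1406 and 1345 with shRNA4 and shRNA6, against 1297 with the vector, but its second probe set lay below control, with log2 ratios of -0.47 and -0.30. In HepG2 PMVK gave 710 in shRNA6 cells and 600 in vector cells, and GGPS1 gave 2315 in shRNA6 cells and 2212 in vector cells. The members of this arm thus did not run one way: 3 of 7 with shRNA4 (53.4% of all genes) and 4 of 8 with shRNA6 (51.2%) lay above control.

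The arm also held the only members at least 1.5-fold above control in HeyA8, and both rested on dim probe sets. IDI1, the isomerase of isopentenyl diphosphate, gave 112 with shRNA4 and 63.9 with shRNA6, against 58.9 with the vector, on the probe set chosen by the rule. Its most intense probe set, marked as cross-hybridising, gave 4586 and 4695, against 4764 with the vector, so the direction with shRNA4 depended on the probe set. MVD, the mevalonate diphosphate decarboxylase, gave 10.4 with shRNA4 and 61.8 with shRNA6, against 5.76 with the vector, and in HeyA8 it was above an array median on the shRNA6 array alone. In HepG2 IDI1 gave 217 in shRNA6 cells and 211 in vector cells, and MVD gave 268 and 246.

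In the squalene and sterol arm 9 of 10 measured enzymes lay below control with shRNA4 (46.6% of all genes) and 8 of 10 with shRNA6 (48.8%). MSMO1, the sterol methyl oxidase, gave 4964 with shRNA4 and 5044 with shRNA6, against 5816 with the vector. SC5D, a sterol desaturase, gave 2017 and 1999 with shRNA4 and shRNA6, against 2429 with the vector. DHCR7, which makes the last step to cholesterol, gave 986 and 1057 with shRNA4 and shRNA6, against 1243 with the vector. By these probe sets both knockdown arrays lay below the shared control array in all 3 genes, by less than 1.5-fold. A second DHCR7 probe set gave 701 with shRNA4 and 723 with shRNA6, against 714 with the vector, close to control. The most intense SQLE probe set (squalene epoxidase) differed little, with log2 ratios of -0.07 and -0.06, while its other 3 probe sets ran from -0.29 to -0.54 over both hairpins. NSDHL, a sterol decarboxylase, lay above control, at 1328 and 1235 with shRNA4 and shRNA6, against 1171 with the vector. Its second probe set gave 926 with shRNA4 and 814 with shRNA6, against 871 with the vector, so its direction with shRNA6 rested on the probe set.

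The enzymes that reduce the sterol after the CYP51A1 step, LBR and TM7SF2, were lower with shRNA4 than the rest of the arm. LBR, which is also a protein of the inner nuclear membrane, gave 1815 with shRNA4 and 6374 with shRNA6, against 4991 with the vector. The shRNA4 array was thus at 36.4% of the control signal and the shRNA6 array at 128%, so the hairpins lay on opposite sides of the control. LBR has 1 probe set here. TM7SF2 gave 37.3 with shRNA4 and 78.9 with shRNA6, against 98.5 with the vector, near the array medians of 57.8 to 61.0 in HeyA8.

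Of the genes that control SREBP or carry sterol, INSIG1 and STARD4 lay below control in HeyA8 with both hairpins. INSIG1 gave 4077 with shRNA4 and 4196 with shRNA6, against 6640 with the vector. The second probe set gave 1227 with shRNA4 and 1474 with shRNA6, against 2263 with the vector, and the third 1854 and 1976, against 3304. All 3 INSIG1 probe sets thus lay below control with both hairpins. STARD4, a cytosolic sterol carrier, gave 2662 with shRNA4 and 2769 with shRNA6, against 3687 with the vector. SCAP lay above control, at 937 and 831 with shRNA4 and shRNA6, against 732 with the vector, and differed little in HepG2, at 1239 in shRNA6 cells and 1214 in vector cells. SREBF2 gave 257 with shRNA4 and 349 with shRNA6, against 302 with the vector, one hairpin on each side. Another SREBF2 probe set gave 341 with shRNA4 and 299 with shRNA6, against 366 with the vector, below control with both. The third gave 142 and 189, against 164, again one on each side. INSIG2 gave 765 with shRNA4 and 607 with shRNA6, against 722 with the vector, also one on each side.

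In HepG2 with shRNA6 the synthesis side lay on the other side of its control: 20 of 22 genes were above it (48.3% of all 12167 genes were), with a median log2 ratio of 0.21 beside -0.01 for all genes. By the probe set that stands for each gene, none of the 27 members above an array median reached 1.5-fold in either direction. The shares of all genes were 6.48% higher and 6.16% lower. When arrays were scaled to equal medians, all genes moved by over 0.1 in this comparison, to a median of -0.12, and the synthesis side moved with them to 0.0985, with 15 of 22 genes above control beside 30.1% of all genes. Its distance from the median of all genes was 0.22 under both scalings. LSS, which closes squalene epoxide into lanosterol, had the largest ratio of the arm, with 4348 in shRNA6 cells and 3122 in vector cells. HMGCS1 gave 5065 in shRNA6 cells and 3940 in vector cells, 129% of control. MSMO1 gave 12730 in shRNA6 cells and 10303 in vector cells. SC5D gave 7124 in shRNA6 cells and 5828 in vector cells. INSIG2 gave 2456 in shRNA6 cells and 1991 in vector cells, while STARD4 differed little, at 2224 in shRNA6 cells and 2168 in vector cells. The 2 synthesis genes below control were MVK, with 846 in shRNA6 cells and 886 in vector cells, and LBR, with 8476 and 8677. Another MVK probe set gave 531 in shRNA6 cells and 333 in vector cells, so the direction of MVK rested on the probe set. NSDHL gave 2127 in shRNA6 cells and 1692 in vector cells. SREBF2 gave 395 in shRNA6 cells and 301 in vector cells on its most intense probe set, but 222 and 301 on another, so its direction rested on the probe set.

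**Figure D3:**
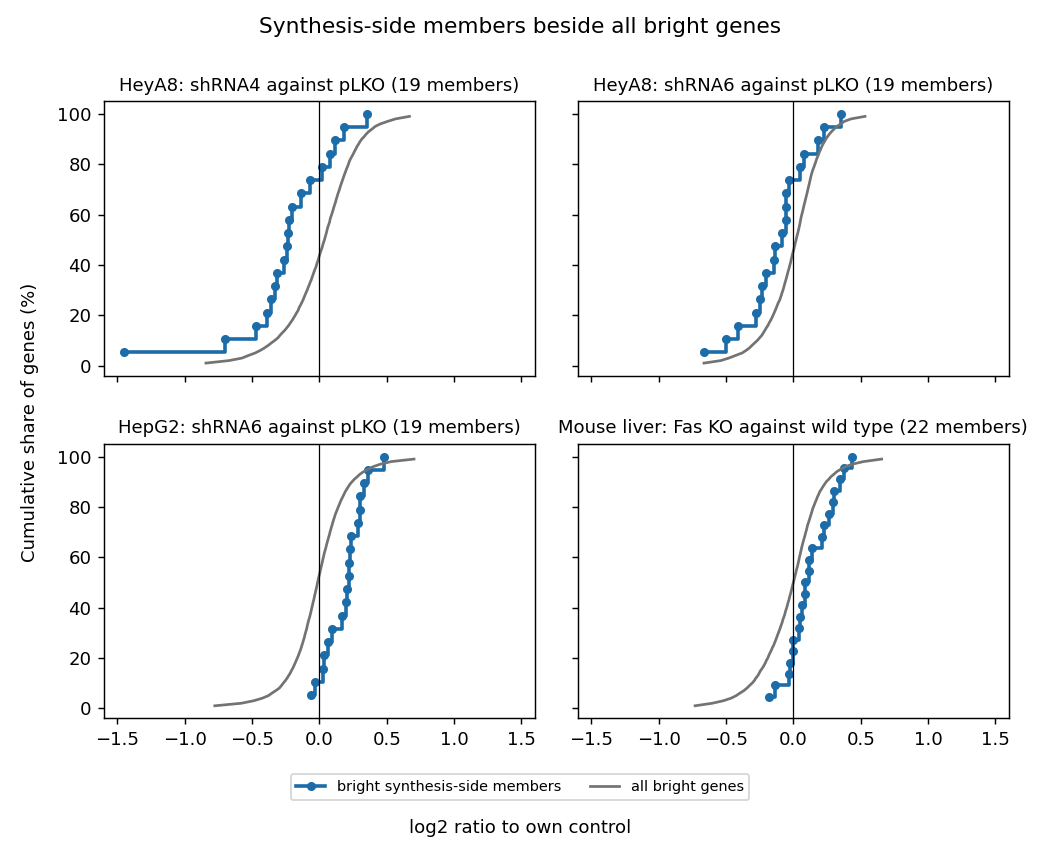
Cumulative share (percent) of bright synthesis members (stepped line with points) and of all bright genes (grey line) by log2 ratio to the own control, in the 4 comparisons. Bright means above the 75th percentile of 1 compared array. Over most of its range the member line lies left of the grey line in HeyA8 and right of it in HepG2 and mouse liver.

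Among bright genes alone the counts ran the same way, but these are most of the same genes on the same arrays and no separate check. With shRNA4 in HeyA8, 14 of 19 bright synthesis genes were below control, against 43.8% of all bright genes. With shRNA6 in HeyA8, 14 of 19 were below control, against 45.5%. With shRNA6 in HepG2, 17 of 19 were above control, against 46.8%. In the Fas knockout liver, 17 of 22 were above wild type, against 50%.

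Whether members changed in common was asked of the 5 human arrays in 1 limma fit with a term for the cell line. It tested the mean effect of FAS knockdown over both lines. None of 29 members passed an adjusted p of 0.05, and 0% of all 13936 genes did. At an unadjusted p under 0.05 there was 1 member, against 4.08% of all genes: NPC1, at -0.33 ± 0.13 (log2, SE), with an adjusted p of 0.991 in limma. The spread behind these p-values is that between these samples, which may be technical. It includes the difference between the HeyA8 hairpins and any unequal response of HepG2 and HeyA8 to knockdown. The difference in level between HepG2 and HeyA8 is taken up by the cell line term. Estimates lay above 0 for 15 members (51.2% of all genes) and below 0 for 14.

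A second limma fit tested the difference itself, the knockdown effect in HepG2 minus that in HeyA8. Again 0 of 29 members and 0% of all genes passed the adjusted threshold. At an unadjusted p under 0.05 there were 4 members, against 4.4% of all genes. They were HMGCS1 at 0.81 ± 0.22, LSS at 0.61 ± 0.24, SC5D at 0.56 ± 0.20 and MSMO1 at 0.52 ± 0.17 (log2, SE), each with an adjusted p of 0.999 in limma. The 4 are enzymes of synthesis, and all 4 estimates are positive. Of 23 synthesis genes 19 had an estimate above 0 (48.2% of all genes did), with a median of 0.39 beside -0.02 for all genes. In the squalene and sterol arm 10 of 10 estimates were above 0. This fit has 1 residual degree of freedom, the difference between the HeyA8 hairpins, and takes HepG2 to vary like HeyA8. Its HeyA8 side holds both hairpins and its HepG2 side shRNA6 alone.

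Between the cell lines the members differed far more than with knockdown. HepG2 was higher than HeyA8 in 19 of 29 members at an adjusted p under 0.05 in limma (30% of all genes), and lower in 2 (28%). Of the 18 measured enzymes 14 were higher in HepG2, and the median over the synthesis side was 0.86 on the log2 scale, beside 0.05 for all genes. TM7SF2 and MVD differed most among the enzymes. TM7SF2 differed by 3.44 ± 0.34 (log2, SE), with 938 and 835 in HepG2, against 37.3, 78.9 and 98.5 in HeyA8. MVD differed by 3.22 ± 0.57, but its signals were under the pseudocount on 2 HeyA8 arrays, and the order of the pair turned with a pseudocount of 1. EBP, the sterol isomerase, gave 4688 and 4019 in HepG2, against 978, 1046 and 1151 in HeyA8, a difference of 2.02 ± 0.13. ACAT2 gave 10440 and 8957 in HepG2, against 2942, 3530 and 3667 in HeyA8, a difference of 1.52 ± 0.13. In these 4 genes every HepG2 array lay above every HeyA8 array. FDPS, SQLE, PMVK and SREBF2 did not pass, with differences of -0.00 ± 0.10, 0.10 ± 0.09, -0.29 ± 0.14 and 0.22 ± 0.21. LBR did not pass either (adjusted p = 0.0651 in limma), at 1.09 ± 0.44. Without the HeyA8 shRNA4 array its difference was 0.60, and it passed in limma (adjusted p = 0.00349). It also passed without the HeyA8 shRNA6 array, at 1.51 (adjusted p = 0.00163 in limma), and with arrays scaled to equal medians, at 1.06 (adjusted p = 0.0125 in limma).

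**Figure D4:**
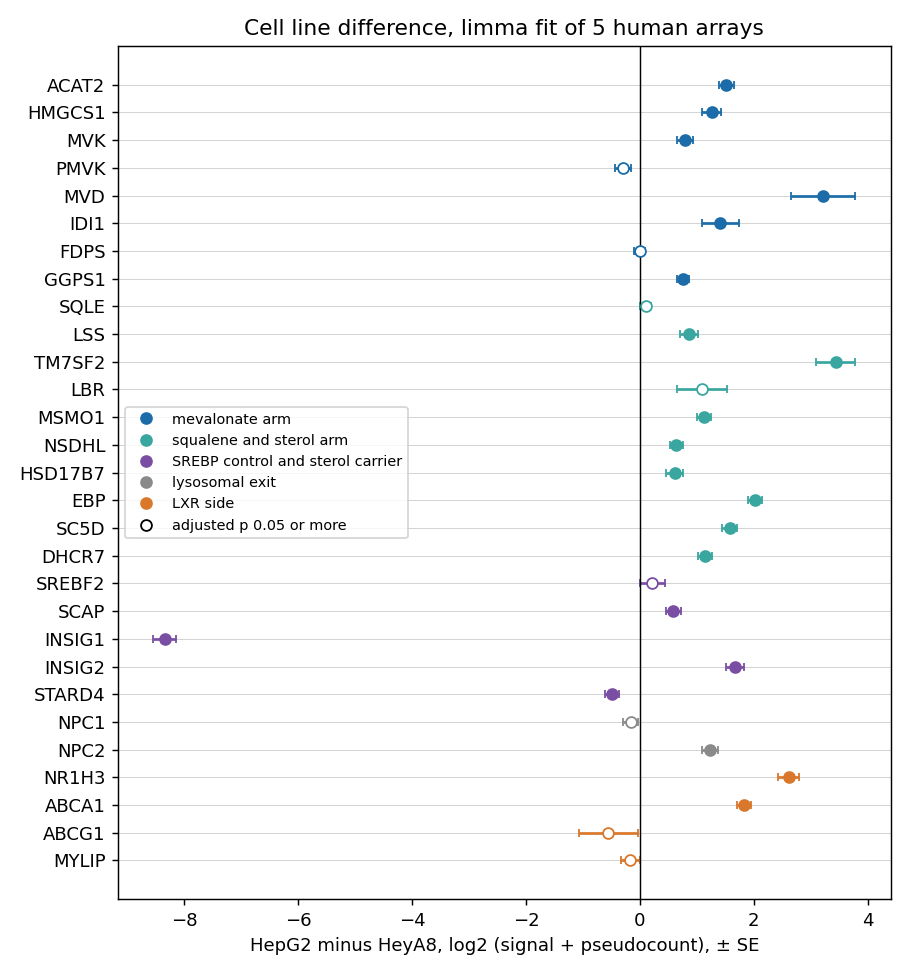
HepG2 minus HeyA8 difference on the log2 scale with its standard error, for each measured member, from the limma fit of 5 arrays. Filled points passed an adjusted p of 0.05. The 19 higher members stand right of 0, and INSIG1 and STARD4 left of it.

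INSIG1 ran against the enzymes. It gave 3.27 and 2.68 in HepG2, against 4077, 4196 and 6640 in HeyA8, and both HepG2 values lay under the pseudocount, so that the fitted difference of -8.35 ± 0.20 depends on it and is not a fold. The other 2 probe sets gave 10.7 and 3.24 with shRNA6 and 4.33 and 17.6 with the vector in HepG2, all below the array medians of 63.4 and 58.5. No HepG2 array thus held an INSIG1 probe set above its median, while all 3 probe sets were above it on all 3 HeyA8 arrays. INSIG2, the paralog, gave 2456 and 1991 in HepG2, against 765, 607 and 722 in HeyA8, a difference of 1.67 ± 0.15. STARD4 was the other member lower in HepG2, by -0.49 ± 0.13 (adjusted p = 0.0109 in limma). Without the HeyA8 vector array the STARD4 difference was -0.29, and it did not pass in limma (adjusted p = 0.153).

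**Figure D5:**
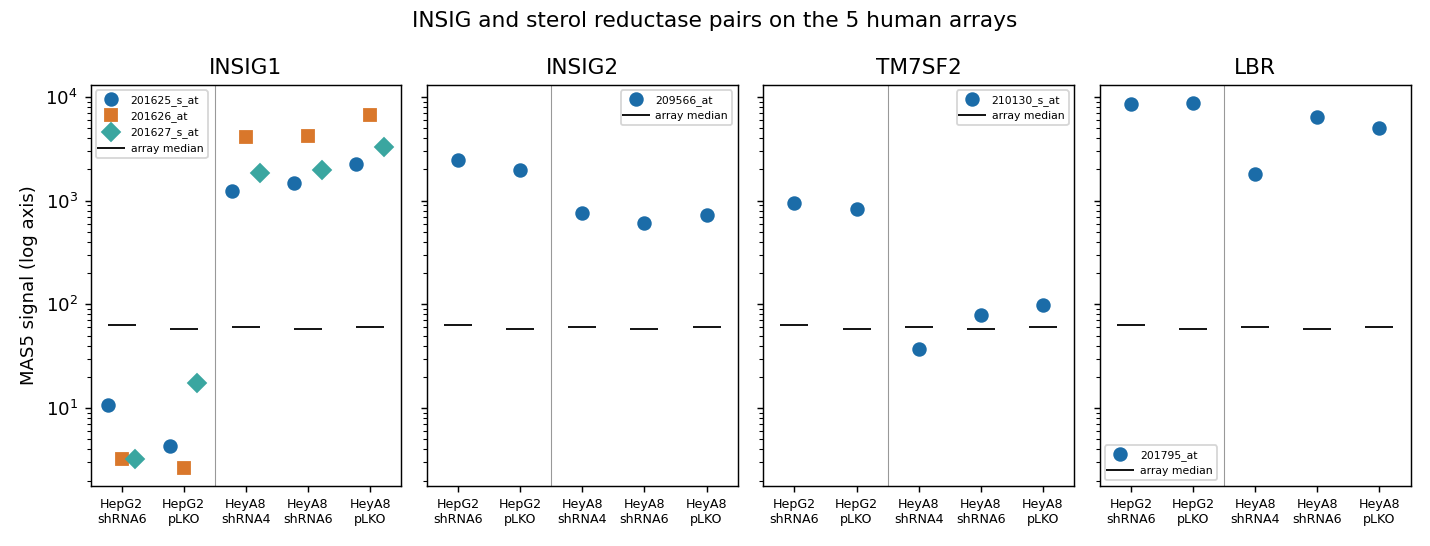
Signals (log axis) of every INSIG1, INSIG2, TM7SF2 and LBR probe set on the 5 human arrays, HepG2 left of the grey line and HeyA8 right of it. Short black lines are array medians. INSIG1 lies below the median on both HepG2 arrays in all 3 probe sets, and INSIG2 and TM7SF2 are higher in HepG2.

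In Fas knockout mouse liver the synthesis side lay mostly above wild type: 18 of 24 genes were above it (47.3% of all 12047 genes were), with a median log2 ratio of 0.10 beside -0.02 for all genes. Scaled to equal medians, 21 of 24 were above, beside 60.3% of all genes. By the probe set that stands for each gene no member reached 1.5-fold, against 4.89% of all genes higher and 7.63% lower. With 1 liver a group nothing was tested. Other probe sets passed 1.5-fold in both directions, with Sc5d at 2270 in the knockout and 1421 in wild type, and Cyp51 at 247 and 400. Among the synthesis probe sets that stand for genes Insig1 had the largest ratio, at 9362 in the knockout and 6930 in wild type, 135% of wild type. Hmgcs1 gave 21327 in the knockout and 16414 in wild type, and its 5 probe sets all lay above wild type. Dhcr7 gave 2120 in the knockout and 1662 in wild type. Fdft1, the squalene synthase, which was measured in mouse only, gave 5189 in the knockout and 4214 in wild type. Msmo1 gave 14446 in the knockout and 11748 in wild type. Srebf2 gave 249 in the knockout and 197 in wild type, with a second probe set at 189 and 195. By the probe sets that stand for genes, these 6 were furthest above wild type, all by less than 1.5-fold. By their most intense probe sets Insig2, at 7546 in both livers, and Tm7sf2, at 6628 in the knockout and 6648 in wild type, did not differ by as much as 1 percent. Another Insig2 probe set gave 5054 in the knockout and 4423 in wild type. Both Insig genes were above the array median in both livers. In the squalene and sterol arm 11 of 12 genes lay above wild type, and in the mevalonate arm 4 of 7. Mvd was at 482 in the knockout and 489 in wild type on one probe set and at 503 and 290 on the other.

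The genes that carry cholesterol out of the lysosome are NPC1 and NPC2. By its most intense probe set NPC1, the membrane protein of this step, gave 2314 with shRNA4 and 2759 with shRNA6 in HeyA8, against 3560 with the vector. In HepG2 it gave 2527 in shRNA6 cells and 2722 in vector cells, and in mouse 2686 in the knockout and 3195 in wild type. NPC2, the soluble partner, gave 2997 with shRNA4 and 2218 with shRNA6 in HeyA8, against 3136 with the vector. In HepG2 NPC2 gave 6479 in shRNA6 cells and 6730 in vector cells. In mouse Npc2 gave 4951 in the knockout and 5111 in wild type. The NPC2 values of shRNA4 in HeyA8, of HepG2 and of mouse liver lay within 5 percent of control, and the common fit called neither gene.

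On the LXR side no common direction was seen. With shRNA4 in HeyA8 4 of 4 measured genes were below control (46.6% of all genes), and with shRNA6 2 of 4 (48.8%). With shRNA6 in HepG2 0 of 3 were below control (51.7%), and in knockout liver 2 of 4 (52.7%). ABCA1, the cholesterol exporter whose promoter holds the LXR element above, gave 1020 with shRNA4 and 1192 with shRNA6 in HeyA8, against 1134 with the vector. In HepG2 ABCA1 gave 4295 in shRNA6 cells and 3653 in vector cells, and in mouse liver 10893 in the knockout and 9871 in wild type. ABCG1, the partner exporter, was dim in human cells, with 35.9 with shRNA4 and 71.4 with shRNA6, against 74.5 with the vector. A second ABCG1 probe set gave 29.1 with shRNA4 and 14.4 with shRNA6, against 64.2 with the vector. In HepG2 the first stayed below the array median, with 54.9 in shRNA6 cells and 20.3 in vector cells. Mylip, the ligase that marks lipoprotein receptors for degradation, had the largest difference of any member in mouse liver, with 1435 in the knockout and 2044 in wild type, by the probe set that stands for each gene. Abcg1 gave 496 in the knockout and 621 in wild type, and its second probe set 15.2 and 110. Human MYLIP gave 457 with shRNA4 and 563 with shRNA6 in HeyA8, against 471 with the vector. Between the cell lines NR1H3 (LXR alpha) was higher in HepG2 by 2.61 ± 0.19 and ABCA1 by 1.83 ± 0.12, while ABCG1 and MYLIP did not pass.

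The mouse samples are tissue, where fewer cells of a type and less RNA per cell cannot be told apart. Summed signals of the 3 macrophage markers were 3962 in the knockout and 4835 in wild type, and those of the 3 endothelial markers 2807 in the knockout and 3661 in wild type. All 3 markers of each list were above the median in both livers and lower in the knockout. The hepatocyte markers summed to 155772 in the knockout and 156277 in wild type. The part of the macrophage and endothelial markers in the Mylip, Abcg1 and Npc1 values was not tested.

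Of 32 further genes around the pathway, 30 were measured in human cells and 27 in mouse liver, and none passed limma's common or difference test, as with 0% of all genes. At an unadjusted p under 0.05 there was 1 of 30 in each, against 4.08% of all genes in common and 4.4% for the difference. They were SOAT1, which esterifies cholesterol, at 0.35 ± 0.12 in common, and LIPA, the lysosomal esterase, at 0.86 ± 0.26 for HepG2 minus HeyA8. In HeyA8 5 of 5 genes for SREBP cleavage and sterol-driven degradation lay above control with shRNA4 (53.4% of all genes) and 4 of 5 with shRNA6 (51.2%), against 3 of 5 in HepG2 and 2 of 5 in knockout liver. Among them MBTPS1, the protease that cleaves SREBP first, gave 1473 with shRNA4 and 1265 with shRNA6, against 1123 with the vector. Genes of the isoprenoid branches lay above control in 9 of 10 cases with shRNA4, 6 of 10 with shRNA6, 2 of 10 in HepG2 and 5 of 9 in knockout liver. The shares of all genes above control were, in that order, 53.4%, 51.2%, 48.3% and 47.3%. For sterol esters and traffic the counts above control were 6 of 9, 6 of 9, 4 of 10 and 3 of 7 in the same order, and for further LXR targets 0 of 3, 2 of 3, 3 of 5 and 2 of 5. In HepG2 LIPA gave 8818 in shRNA6 cells and 5293 in vector cells, and SOAT2, a liver and gut esterification enzyme, gave 1404 in shRNA6 cells and 877 in vector cells. Both were over 1.5-fold above control, 2 of 30 further genes, beside 6.48% of all genes. Between the cell lines 13 of the 30 were higher in HepG2 (30% of all genes) and 4 lower (28%). The higher ones took in all 5 further LXR targets, with the sterol exporter ABCG5 at 6.07 ± 0.51. ABCG5 and ABCG8 were above the median on no HeyA8 array, so their differences depend on the pseudocount and are not folds.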

How the data were processed

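RNA of 7 samples was hybridised to Affymetrix arrays (5 human, 2 mouse). The authors deposited linear array intensities made with MAS5, per the submitters' processing notes, which give no version or settings. The probe set of highest mean signal stood for a gene, with cross-hybridising (_x_at) ones used only where there was no other. The pseudocount was the 25th percentile of each table. limma 3.58.1 in R 4.3.3 fitted cell line and knockdown on log2 values (trend on, 2 residual degrees of freedom). P-values were adjusted by Benjamini-Hochberg over 13936 genes. The common fit was tested on simulated data, with noise set from the difference between the HeyA8 hairpin arrays. It called 11 of 50 genes changed 1.5-fold (22%), 21 of 50 changed 2-fold (42%) and 40 of 50 changed 4-fold (80%). That noise holds no unequal response of HepG2 and HeyA8, which the spread in the fit of the human arrays includes. Recovery under unequal responses was not tested. Even at the shares given, most true changes of the size seen in the members would not be called. On the human arrays the fit called 0 of 13936 genes, so FAS itself was not called. Its log2 ratios were -0.82 with shRNA4 and -1.29 with shRNA6 in HeyA8, and -0.77 with shRNA6 in HepG2. Single comparisons, with 1 array a group, were not tested and were counted at 1.5-fold. The number of arrays limits the precision. Signals on every human array are given for members at least 1.5-fold from control in any comparison or with one sign in all human comparisons, and for further members singled out after their values were seen. Members and lists were chosen with earlier results of these data known. In human, 41091 probe sets named 1 gene, 1801 several and 11721 none, and in mouse 34945, 932 and 9160. The 62 human and 64 mouse control probe sets were left out. Alternatives were other pseudocounts, scalings, filters, size thresholds and probe set rules, fits with no trend or no cell line term, and each array left out in turn. Other steps used Python 3.11.15, numpy 2.4.6, pandas 2.3.3 and matplotlib 3.10.9.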

Additional observations from a re-analysis of the deposited data

Results flagged for a closer look

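The median log2 ratio of the synthesis side was 0.21 in HepG2 with shRNA6, and -0.23 and -0.06 in HeyA8 with shRNA4 and shRNA6, so HepG2 minus the mean of both HeyA8 comparisons was 0.358. With arrays scaled to equal medians the shRNA6 value in HeyA8 turned to 0.0186, above 0 as in HepG2, but all genes moved to 0.0816. The distance of the synthesis side from all genes was thus -0.063 in HeyA8 with shRNA6, beside -0.064 before this scaling. In HepG2 that distance was 0.22 under both scalings. The difference of medians of 0.358 was not tested. It sets shRNA6 alone in HepG2 against both hairpins in HeyA8, where shRNA4 had the larger shift. Gene by gene, limma called 0 of 29 members when it tested HepG2 against HeyA8 in their response to knockdown.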

How the results depend on the processing

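The limma counts of members were 0 for the common effect and 0 for the difference between the lines under all alternatives run. With all arrays kept, the cell line difference gave 19 to 22 of 29 members, and 19 of 25 under the stricter filter. Fewer passed when the HeyA8 vector array or either HepG2 array was left out. HSD17B7 and STARD4 lost their call without the variance trend. With 1 array left out, HSD17B7, STARD4, IDI1, SCAP, LSS, MVK and NSDHL each lost it in some fit. NPC1 gained a call with the mean of probe sets. Of all values of medians and counts over the members, these limma counts included, 181 stayed within the limits set, 17 moved further and 4 changed sign. The limits were 0.1 on the log2 scale for a median and 1.5 times for a count. The limit of 0.1 is wide beside synthesis medians of -0.06 for shRNA6 in HeyA8 and 0.10 in mouse liver. With quantile normalization the mouse synthesis median lay 0.06 above that of all genes, beside 0.12 in the main setting, and still counted as within the limit. Counts of 0 are also among the 181. With arrays scaled to equal medians, the synthesis median became 0.0186 for shRNA6 in HeyA8 and 0.0985 in HepG2. The LXR median became -0.0141 in HepG2, and 0 members were 1.5-fold lower with shRNA6 in HeyA8. The medians of all genes were then 0.0816 for shRNA6 in HeyA8 and -0.12 in HepG2. With shRNA4 in HeyA8 the 5 lower members became 3 under the stricter filter and 2 at 2-fold. The 1 higher became 0 with the table median as pseudocount, the stricter filter, the mean of probe sets, the probe set of highest median, and 2-fold. IDI1 turned to -0.0547 with that last probe set rule. With shRNA6 in HeyA8 the lower count was 2 with the mean of probe sets and 0 at 2-fold, and the higher count was 0 with the stricter filter. The LXR median there was 0.16 with the stricter filter, -0.0824 with the mean of probe sets and -0.0657 over all member probe sets, an alternative chosen after seeing the data. Without a filter 1 member was 1.5-fold higher in HepG2. In mouse liver the LXR median was -0.25 with the mean of probe sets, with 1 member 1.5-fold lower, and -0.24 over all member probe sets. These alternatives use other scalings, genes or probe sets by construction, and further causes were not tested. No paired analysis was possible because each group has 1 array and the labels carry no replicate numbers. Signals near the array medians, as for MVD, ABCG1 and IDI1, limit those ratios.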

Other observations

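The measured genes nearest to INSIG1 on chromosome 7, named from the RefSeq order and chosen after the INSIG1 values were seen, were not all low in HepG2. PAXIP1 gave 1667 and 1598 in HepG2, against 997, 1047 and 1005 in HeyA8, and RBM33 gave 1361 and 1687 in HepG2, against 1405, 1339 and 1493 in HeyA8. HTR5A and EN2, the nearest measured gene on each side, and CNPY1 and SHH were below the array median on all 5 human arrays.

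On the 2 vector arrays alone, with no knockdown, HepG2 was at least 2-fold above HeyA8 in 10 of 29 members (20.8% of all 13072 genes) and at least 2-fold below in 2 (18.8%), with a median log2 difference of 0.76 beside 0.07 for all genes. These values have no replicate check.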
